A study of Mus musculus with 6 samples.

Results

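The MHC class I and antigen processing genes examined here are 10 genes, chosen by symbol from the 24054 genes counted by RNA-seq in pluripotent embryonic stem (ES) cells of the mouse. They are the heavy chain genes H2-K1 and H2-D1, the light chain gene B2m, the peptide transporter genes Tap1 and Tap2, the loading factor gene Tapbp, the inducible proteasome subunit genes Psmb8 and Psmb9, the trimming peptidase gene Erap1 and the transcriptional activator gene Nlrc5. The question was whether their RNA differed between Morc3 knock-out (ko) and wild-type ES cells, Morc3 being a MORC family ATPase that the study examined as a silencing factor of endogenous retroviruses. 3 libraries came from Morc3 ko ES cells, labelled KO27-1, KO27-2 and KO27-3 and called clones 1, 2 and 3 here, and 3 from wild-type WT26 ES cells, called p42, p43 and p56 after their titles. All cells were feeder-independent and grown on gelatin with serum and LIF, and no interferon treatment is named for any of them. According to the methods of the study, ko lines were made by transfection of Cas9 with guide RNAs against Morc3 and isolated as single clones. Each ko library thus stands for 1 clone, while the 3 wild-type libraries share 1 line. The study describes its samples as biological replicates, and neither the labels nor the methods say whether the libraries of a group came from separate cultures, so the p-values measure the spread between these libraries, which may in part be technical.

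MHC class I molecules sit on the surface of most nucleated cells and show peptides from inside the cell to CD8+ T cells. The proteasome cuts proteins into peptides, the Tap1 and Tap2 proteins carry them into the endoplasmic reticulum, tapasin (the product of Tapbp) helps to load them, and Erap1 trims their ends. The loaded heavy chain needs beta-2-microglobulin, the product of B2m, to reach the surface. Interferon gamma and Nlrc5 raise the transcription of most of these genes, and ES cells are known for low surface levels of class I molecules.

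Sense-strand gene counts ranged from 10740618 to 14123131 per library, and 12222 genes passed the filter on low counts. Morc3 itself reached 77.8, 138 and 135 CPM (sense counts scaled to the size of each library) in ko clones 1, 2 and 3, against 277, 272 and 302 CPM in p42, p43 and p56. By edgeR's quasi-likelihood test the log2 fold change was -1.28 (SE 0.16; adjusted p of 8.4e-04). The Morc3 RNA was thus lower in the 3 ko libraries and not absent from them. All 10 ES cell marker genes examined, Pou5f1 and Nanog among them, passed the filter, and their summed level was 6763 to 6843 CPM in ko and 6297 to 6371 CPM in wild type. By edgeR, 0 of the 10 were called at an adjusted p under 0.01. The means of Dppa5a (1369 CPM in ko, 1017 CPM in wild type) and Zfp42 (1463 and 1316 CPM) differed most. Dppa5a had a log2 fold change of 0.43 (adjusted p of 0.0231 by edgeR). Pou5f1 and Nanog had 0.04 and 0.09, while Sox2, Tfcp2l1 and Tdgf1 had -0.04, -0.12 and -0.09. Of 11 leukocyte marker genes, only Cd68 passed the filter, and the 11 genes together reached 7.48 to 9.09 CPM in ko and 8.33 to 8.91 CPM in wild type. The 7 interferon genes examined, Ifnb1 and Ifng among them, had no count in any library. In these bulk libraries, a lower RNA level per cell and a smaller share of cells with that RNA cannot be told apart.

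The promoters of the members are shown first for B2m and H2-D1, whose ko values lay below all wild-type values. Such separation with ko lower occurred in 10.2% of all tested genes. The sequences beside the start sites are where the known regulators of class I genes bind, and their part in these values was not tested. The RefSeq promoter table for GRCm38.p6 held 9 windows for 8 of the 10 members and none for Tap2 or Nlrc5. Only the 250 bases before each transcript start were used, read 5′ to 3′ on the strand of the gene. The B2m window is chr2:122147437-122147686 and the H2-D1 window is chr17:35262844-35263093, both on the plus strand. Capitals mark an interferon-response type match (GAAANNGAA) in B2m and a kappa B match (GGGATTCCC) in H2-D1.
B2m: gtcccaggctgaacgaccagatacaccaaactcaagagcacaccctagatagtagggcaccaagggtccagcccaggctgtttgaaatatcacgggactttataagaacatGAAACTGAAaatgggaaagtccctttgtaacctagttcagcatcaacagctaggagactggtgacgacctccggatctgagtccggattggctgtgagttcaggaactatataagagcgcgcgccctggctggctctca
H2-D1: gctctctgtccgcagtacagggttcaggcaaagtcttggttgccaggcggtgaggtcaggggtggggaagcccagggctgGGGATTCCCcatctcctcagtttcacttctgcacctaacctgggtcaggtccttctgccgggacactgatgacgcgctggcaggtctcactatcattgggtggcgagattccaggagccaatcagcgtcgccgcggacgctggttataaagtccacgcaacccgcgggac

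The heavy chain genes H2-K1 and H2-D1 shared the kappa B letters within nearly the same surroundings. The stretches below hold the match in capitals with 10 bases on each side, at chr17:34000439-34000467 (minus strand) for H2-K1 and chr17:35262914-35262942 (plus strand) for H2-D1.
H2-K1: cccagggctgGGGATTCCCcatctccaca
H2-D1: cccagggctgGGGATTCCCcatctcctca
Aligned locally, the H2-K1 and H2-D1 windows were identical at 161 of 177 positions (91.0%) with no gap. H2-K1 has 2 RefSeq transcript starts in the table, and the match begins 110 or 124 bases before them. It begins 170 bases before the H2-D1 start. GGGATTCCC, searched on both strands, occurred in 99 of all 32851 promoter windows (0.301%), and among the members only in the H2-K1 and H2-D1 windows.

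The other motifs, also searched on both strands, were common among all promoters. GAAANNGAA occurred in 7.13% of all windows and among the members in B2m, 139 bases before the start, and in Erap1, 9 bases before it. TTCNNNGAA, the gamma-interferon activated site, occurred in 7.02% of all windows and among the members only in Psmb8, 97 bases before the start. ATTGG, the inverted CCAAT box, or its reverse complement CCAAT occurred in 33.8% of all windows and in 7 of the 9 member windows. These were the windows of B2m, H2-K1 (both), H2-D1, Psmb9, Tap1 and Tapbp, and the Tap1 window held CCAAT only. TGACGT, a cAMP response element core, occurred in 6.47% of all windows and in none of the 9. Some B2m and class I promoter elements differ from these letters, so a window without a match shows only that these letters are not in it. The starts of Psmb9 and Tap1 face away from each other with 225 bases between them, so that their upstream windows overlap.

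None of the 10 genes was called different between Morc3 ko and wild type at the threshold used, an adjusted p under 0.01. 7 members passed the filter on low counts, and edgeR called 0 of them higher and 0 lower, while 0.859% of all tested genes were called higher and 0.417% lower. DESeq2 gave an adjusted p to 9 members and called 0 of them. At an unadjusted p under 0.05, edgeR counted 2 of the 7 as lower (B2m and H2-K1) and 0 as higher, where 7.86% of all tested genes were lower and 6.42% higher. The ko values lay below all wild-type values in 2 of the 7 (B2m and H2-D1) and above them in 0. Over all tested genes such separation occurred in 10.2% with ko lower and in 9.67% with ko higher. 5 of the 7 had a negative log2 fold change, against 50% of all tested genes, and the median was -0.19, against -0.00010 over all tested genes. With 7 genes, these counts describe the members and are no test of them as a group. The median level of all tested genes on the members' chromosomes (2, 8, 13 and 17) stayed within 0.042 (log2) of the wild-type mean in each library.

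**Figure D1:**
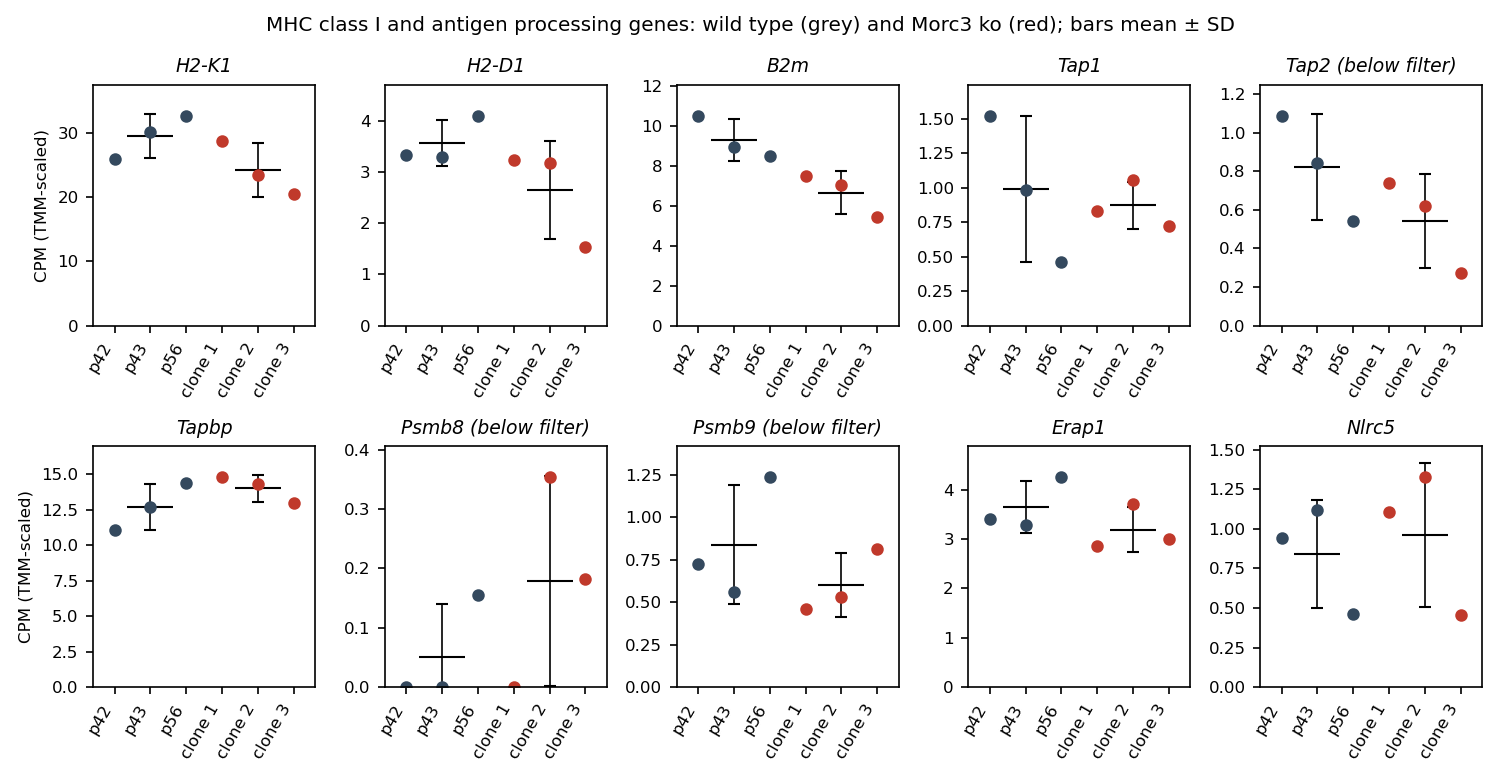
Level of each of the 10 genes in CPM (y axis, linear from 0, a scale for each gene) in the 3 wild-type libraries (grey points) and 3 Morc3 ko clones (red points), with group mean and SD (bars, n = 3). In the B2m and H2-D1 panels the red points lie below all grey points, in the other 5 panels of tested genes the groups overlap, and the Tap2, Psmb8 and Psmb9 panels hold genes below the count filter.

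The light chain gene B2m (chr2:122147687-122153082, plus strand, within the span of Patl2 on the minus strand) showed the lowest unadjusted p of the members. It reached 10.5, 8.96 and 8.49 CPM in p42, p43 and p56, and 7.48, 7.06 and 5.45 CPM in ko clones 1, 2 and 3. All ko clones were below all wild-type libraries, with clone 3 the lowest. The means were 6.66 ± 1.08 CPM in ko and 9.32 ± 1.05 CPM in wild type (SD, n = 3). The fold was 0.715 with a 95% interval of 0.562 to 0.909, the log2 fold change was -0.48 (SE 0.16), and the edgeR unadjusted p was 0.0103. The adjusted p was 0.169, so B2m was not called. The values rest on 60 to 145 counts per library, and no opposite-strand count fell on B2m in any library.

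The classical heavy chain gene H2-K1 (chr17:33996012-34000619, minus strand) was the member with the most counts per library after scaling. It reached 25.9, 30.1 and 32.7 CPM in p42, p43 and p56, and 28.8, 23.4 and 20.5 CPM in ko clones 1, 2 and 3. The groups overlapped, since clone 1 was above p42. The log2 fold change was -0.29 (SE 0.13, 95% interval -0.57 to -0.0032), with an edgeR unadjusted p of 0.0479 and an adjusted p of 0.343. Without ko clone 1 the adjusted p was 0.133.

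H2-D1, the other classical heavy chain gene (chr17:35263094-35267497, plus strand), had fewer counts than H2-K1 in each library. It reached 3.33, 3.29 and 4.09 CPM in p42, p43 and p56, and 3.23, 3.18 and 1.54 CPM in ko clones 1, 2 and 3. Clones 1 and 2 lay just under the lowest wild-type value, and clone 3 stood well below the rest with 17 counts. The log2 fold change was -0.42 (SE 0.27, 95% interval -1.01 to 0.16; adjusted p of 0.533 by edgeR). Without clone 3 it was -0.15.

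Reads of 50 bases cannot always separate the class I heavy chains, which are close relatives. Shares were taken over the longest protein-coding transcript of each gene in the GENCODE vM21 set. Of all 50-base windows of this H2-K1 transcript, 8.79% also occurred in a transcript of another gene, most often H2-D1 (6.94%). For H2-D1 this share was 14.3%, most often with H2-Q1 (7.40%). A read pair that STAR can place only at several sites is not in the gene counts, and a pair with 1 mate in a shared window may still be placed by the other mate. How many pairs were lost in this way was not measured. No window of B2m, Psmb8, Psmb9, Erap1 or Nlrc5 was shared, and Tap1 and Tap2 shared 0.861% and 0.737% of their windows with each other. For Tapbp the share was 2.00%.

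The peptide transporter genes Tap1 and Tap2 encode the 2 subunits of 1 transporter and had few counts. Tap1 (chr17:34187556-34197225, plus strand) had 21, 14 and 6 counts in p42, p43 and p56 and 9, 12 and 8 in ko clones 1, 2 and 3. The wild-type libraries spanned the ko values on both sides. Its log2 fold change was -0.19 (SE 0.43, 95% interval -1.13 to 0.76; adjusted p of 0.898 by edgeR), an interval that covers folds from 0.457 to 1.69. Tap2 (chr17:34204479-34216321, plus strand) had 15, 12 and 7 counts in wild type and 8, 7 and 3 in ko, and did not pass the filter. Its summed counts, scaled for library size, had a ratio of ko over wild type of 0.655, with a 95% interval of 0.348 to 1.19 that covers counting error only. The interval includes equal levels, so the direction of any Tap2 difference was left undetermined.

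Tapbp, the tapasin gene (chr17:33919478-33929290, plus strand), was 1 of the 2 tested members with a higher mean in ko. It reached 11.1, 12.7 and 14.4 CPM in p42, p43 and p56, and 14.8, 14.3 and 12.98 CPM in ko clones 1, 2 and 3. The groups overlapped. Its log2 fold change was 0.14 (SE 0.13, 95% interval -0.13 to 0.42; adjusted p of 0.693 by edgeR), the narrowest interval among the members.

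Erap1, the peptidase that trims peptides in the endoplasmic reticulum (chr13:74639573-74693205, plus strand), overlaps the end of Cast on the other strand over 840 bases. It reached 3.40, 3.29 and 4.25 CPM in p42, p43 and p56, and 2.86, 3.71 and 2.99 CPM in ko clones 1, 2 and 3. The groups overlapped, and the log2 fold change was -0.19 (SE 0.21, 95% interval -0.64 to 0.26; adjusted p of 0.750 by edgeR).

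Nlrc5, the activator of class I transcription (chr8:94434335-94527272, plus strand), had 13, 16 and 6 counts in p42, p43 and p56 and 12, 15 and 5 in ko clones 1, 2 and 3. Each group held 2 higher libraries and 1 low library. The log2 fold change was 0.18 (SE 0.45, 95% interval -0.80 to 1.16; adjusted p of 0.906 by edgeR), and its sign turned when some single libraries were left out.

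**Figure D2:**
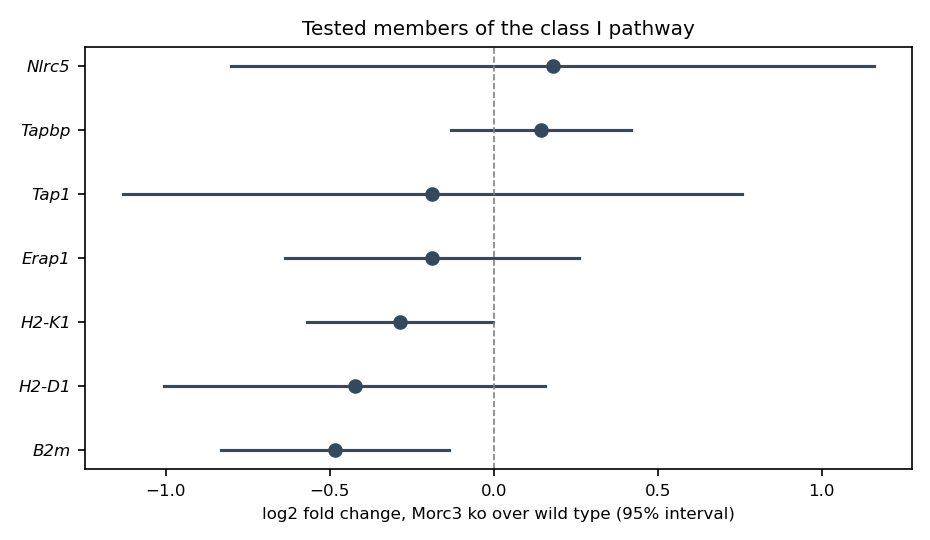
Log2 fold change of Morc3 ko over wild type (x axis) for the 7 tested members, with points for the edgeR estimate and lines for its 95% interval. The intervals of B2m (-0.83 to -0.14) and H2-K1 (-0.57 to -0.0032) lie below 0, the other 5 span 0, and those of Tap1 and Nlrc5 are the widest.

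Ko clone 3 was the lowest of the 6 libraries for 4 of the 7 tested members (H2-K1, H2-D1, B2m and Nlrc5), where it was the lowest for 17.3% of all tested genes. For Nlrc5 it was nearly level with p56, with 5 counts (0.454 CPM) against 6 counts (0.463 CPM). Without clone 3, the log2 fold change of B2m was -0.36 (adjusted p of 0.539 by edgeR) and that of H2-K1 was -0.18 (adjusted p of 0.772). For B2m the adjusted p was 0.0461 without p56, the smallest of its alternatives and still above 0.01.

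The inducible catalytic subunits of the proteasome, replace constitutive ones in immune cells and after interferon, and the 2 that are members had very few counts. Psmb8 (chr17:34198195-34201454, plus strand) had 0, 0 and 2 counts in p42, p43 and p56 and 0, 4 and 2 in ko clones 1, 2 and 3. A count of 0 allows up to 3 counts, which is 0.217 CPM in p42, 0.210 CPM in p43 and 0.277 CPM in ko clone 1. Psmb8 was therefore close to or under the limit of these libraries, and its scaled count ratio of 3.71 (95% interval 0.664 to 37.6, counting error only) leaves its direction undetermined. Psmb9 (chr17:34182030-34187330, minus strand) had 10, 8 and 16 counts in wild type and 5, 6 and 9 in ko. Its scaled count ratio was 0.728 (95% interval 0.397 to 1.30, counting error only). Psmb8 and Psmb9 did not pass the filter and were not tested.

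Psmb10, the third inducible subunit, was not low in the same cells. It reached 49.5, 55.2 and 51.7 CPM in p42, p43 and p56 and 48.7, 52.0 and 48.6 CPM in ko clones 1, 2 and 3, with a log2 fold change of -0.07 (adjusted p of 0.752 by edgeR). Per kilobase of exon (all annotated exons of a gene merged), so that levels compare between genes, Psmb10 stood at 30.6 ± 1.69 CPM per kb in wild type and its constitutive counterpart Psmb7 at 120 ± 4.82 CPM per kb (SD, n = 3). Psmb10 thus made up 19.0% to 21.5% of the sum of both over the 6 libraries. Psmb9 stood at 0.229 ± 0.096 CPM per kb in wild type against 189 ± 9.34 CPM per kb for its counterpart Psmb6, and made up at most 0.182% of their sum. Psmb8 stood at 0.015 ± 0.026 CPM per kb against 120 ± 19.9 CPM per kb for its counterpart Psmb5, and made up at most 0.103%. With the length of the longest coding transcript in place of merged exons, a choice made after seeing the data, the shares were 9.40% to 10.8% for Psmb10, at most 0.211% for Psmb9 and at most 0.213% for Psmb8. Psmb10 made up the largest share in each ko library as well. Per kilobase of exon, Psmb8 (0.103%) stood above Psmb9 (0.0719%) in ko clone 2 and below it in clones 1 and 3. Psmb10, Psmb6 and Psmb5 were taken up here after their values were seen.

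**Figure D3:**
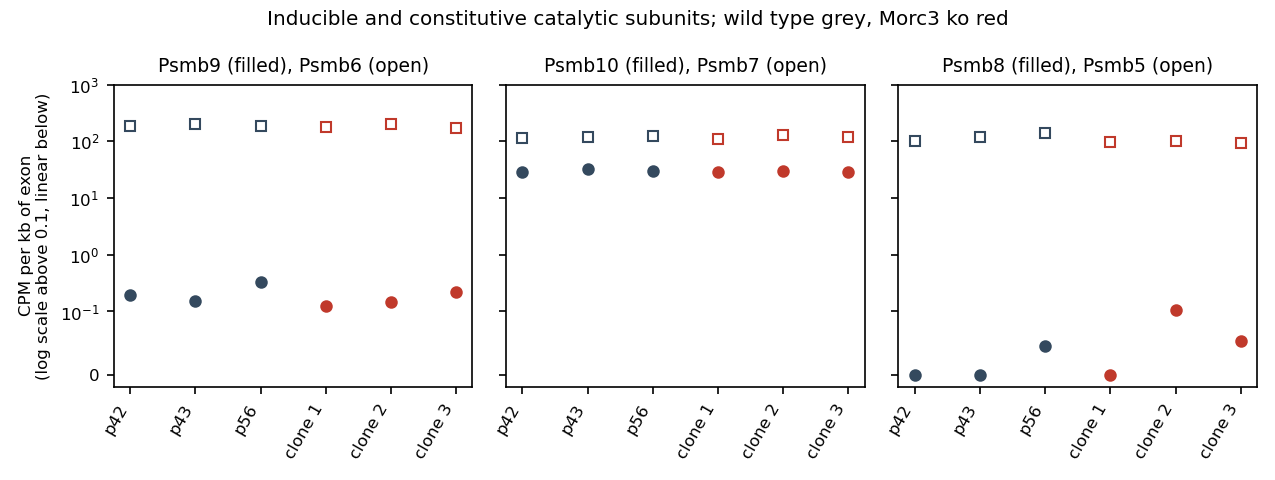
Level of each inducible catalytic subunit (filled circles) and its constitutive counterpart (open squares) in CPM per kb of exon (y axis, log scale above 0.1 and linear below) in 3 wild-type libraries (grey) and 3 Morc3 ko clones (red). Psmb10 lies within 1 order of magnitude of Psmb7 in all 6 libraries, while Psmb9 and Psmb8 lie near the bottom of the scale.

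Levels of the 10 genes per kilobase of merged exons in wild type spanned the range from 10.8 to 0.015 CPM per kb. B2m (10.8 ± 1.22) and H2-K1 (10.1 ± 1.16) came first, and their libraries overlapped. Tapbp (3.50 ± 0.45), H2-D1 (1.38 ± 0.18) and Erap1 (0.501 ± 0.072) followed, each below the gene before it in all 3 wild-type libraries. Psmb9 (0.229 ± 0.096), Tap2 (0.217 ± 0.072), Tap1 (0.180 ± 0.097) and Nlrc5 (0.099 ± 0.040) came below Erap1 in all 3 libraries and each overlapped with the next of these 4. Psmb8 was last. In ko, the mean of H2-K1 (8.25 CPM per kb) was above that of B2m (7.75 CPM per kb), again with overlapping libraries. The order depends on the length used. Per kilobase of the longest coding transcript, H2-K1 (18.3 ± 2.10) was above B2m (10.8 ± 1.22) in all 3 wild-type libraries, Psmb9 (0.621 ± 0.261) overlapped with Erap1 (0.646 ± 0.093), and Tap1 stood before Tap2.

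Of 126 other genes of class I presentation, 125 were in the files and 88 passed the filter. At an adjusted p under 0.01 by edgeR, 2 rose in Morc3 ko and 0 fell, against 0.859% and 0.417% of all tested genes. 13 of the 88 (14.8%) had an unadjusted p under 0.05, close to the 14.3% of all tested genes, and the median log2 fold change was -0.0034. The genes that rose were Psme4 and Lnpep. Psme4 (chr11:30771775-30881150) encodes an activator that caps the proteasome and is known for its work on acetylated histones. It reached 473, 449 and 483 CPM in p42, p43 and p56 and 734, 701 and 725 CPM in ko clones 1, 2 and 3. The groups lay far apart relative to their spread, with a fold of 1.54 (95% interval 1.41 to 1.67) and a log2 change of 0.62 (SE 0.06; adjusted p of 6.2e-05 by edgeR).

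Lnpep (chr17:17527723-17624489) encodes an endosomal aminopeptidase that can trim peptides for cross-presentation. It reached 28.5, 28.2 and 29.3 CPM in p42, p43 and p56 and 42.1, 37.5 and 42.4 CPM in ko clones 1, 2 and 3. The log2 fold change was 0.51 (SE 0.08; adjusted p of 0.0061 by edgeR). The call was lost when any single library other than p56 was left out, with an adjusted p of up to 0.0578 (without clone 3), while the log2 fold change stayed between 0.48 and 0.56.

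**Figure D4:**
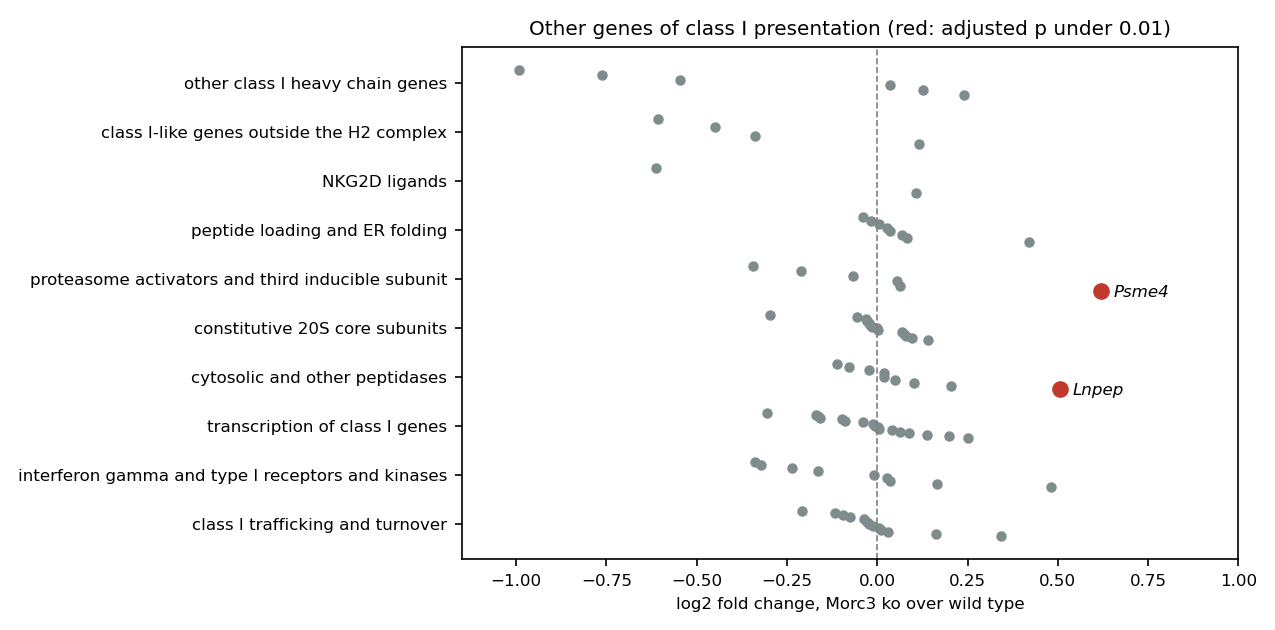
Log2 fold change of Morc3 ko over wild type (x axis) for the 88 tested other genes of class I presentation, 1 point a gene, by role (y axis). The 2 red points, Psme4 (0.62) and Lnpep (0.51), passed an adjusted p of 0.01, and the remaining points lie on both sides of 0.

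Among the other class I heavy chain genes, 16 of 30 had no count in any library and 6 passed the filter, none of which was called. Some of the 16 say little about expression. H2-L and H2-T9 had no position in the RefSeq table, H2-Q8 and H2-Q9 are placed there away from the H2 region, and H2-Q6, H2-Q7 and H2-T22 shared 32.0%, 34.9% and 44.7% of their 50-base windows with other genes. These 7 were taken up after their values were seen. H2-M5 was the highest of the 30, with 11.5 to 18.9 CPM in wild type and 12.0 to 18.2 CPM in ko (log2 fold change 0.13, adjusted p of 0.836 by edgeR). The Q-region gene H2-Q4 (chr17:35379617-35384674) reached 4.78, 5.53 and 4.71 CPM in p42, p43 and p56 and 2.77, 3.00 and 3.09 CPM in ko clones 1, 2 and 3. The groups did not overlap, as in 10.2% of all tested genes with ko lower, and the log2 fold change was -0.76 (SE 0.18). The edgeR adjusted p of 0.0456 was above the threshold of 0.01. H2-Q4 shared 24.3% of its 50-base windows with other genes. H2-Q10 also had lower values in ko and was not called (adjusted p of 0.272 by edgeR). It had 4, 8 and 7 counts in ko clones 1, 2 and 3 and 13, 14 and 20 in p42, p43 and p56. H2-Q2 and H2-T23 went the other way, but lay below the filter and were not tested. H2-Q2 had 7, 7 and 9 counts in ko and 2, 3 and 4 in wild type, and H2-T23 had 3, 2 and 5 against 1, 0 and 1. H2-Q10, H2-Q2 and H2-T23 were taken up after their values were seen. Among class I-like genes that pair with B2m, Fcgrt, the neonatal Fc receptor heavy chain, had a log2 fold change of -0.34 (adjusted p of 0.383) and Cd1d1, which presents lipids, one of 0.12 (adjusted p of 0.834). For the NKG2D ligand genes the values were -0.61 for Ulbp1 (adjusted p of 0.241) and 0.11 for H60b (adjusted p of 0.906), all by edgeR.

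The loading and folding factors of the endoplasmic reticulum all passed the filter, 8 of 8, and none was called. The most abundant were the chaperone genes Canx, with 817 to 903 CPM in wild type and 818 to 935 CPM in ko, and Hsp90b1, with 784 to 859 CPM in wild type and 803 to 902 CPM in ko. The 14 constitutive core subunit genes of the proteasome all passed the filter as well and none was called, with log2 fold changes from -0.30 to 0.14. Psmb4 and Psmb7, the highest of them, had log2 fold changes of 0.0025 and 0.00023. Pomp, a proteasome assembly factor, had 0.05 (adjusted p of 0.808 by edgeR). Of the 9 peptidase genes other than Erap1, Lnpep alone was called, and the abundant Lap3 and Tpp2 had log2 fold changes of 0.05 and 0.10.

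Of 20 genes that act in the transcription of class I genes, 17 passed the filter and 0 were called, with log2 fold changes from -0.31 to 0.25. Nfyb, a subunit of the factor that binds CCAAT boxes, had a log2 fold change of -0.01 and Creb1, which binds cAMP response elements, one of -0.09. The interferon receptor and signalling genes were all expressed, 9 of 9, and none was called. The kinase gene Jak1 (chr4:101151974-101265282) came nearest, with 48.0, 49.5 and 47.2 CPM in p42, p43 and p56 and 38.3, 35.4 and 40.7 CPM in ko clones 1, 2 and 3. These groups did not overlap, as in 10.2% of all tested genes with ko lower. The log2 fold change was -0.34 (SE 0.08; adjusted p of 0.0435 by edgeR). Socs3, an inhibitor of the same kinases, had a log2 fold change of -0.0084 (adjusted p of 0.984). Of the 14 trafficking and turnover genes, 13 passed the filter and 0 were called, and the abundant Vcp and Sec61a1 had log2 fold changes of -0.02 and 0.01.

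4 related genes lie on chromosome 14, where p56 stood apart. They are the proteasome activator genes Psme1 and Psme2, the constitutive subunit gene Psmb5 and the interferon-response factor gene Irf9, taken up after their values were seen. Their log2 fold changes were -0.21, -0.34, -0.30 and -0.31, and p56 was the highest of the 6 libraries for each. Psme2, for example, reached 34.3, 38.4 and 55.7 CPM in p42, p43 and p56 and 32.2, 35.8 and 33.0 CPM in ko clones 1, 2 and 3. The median of the 421 tested genes of chromosome 14 was 0.24 (log2) above the wild-type mean in p56, -0.12 in p42 and p43, and -0.20 to -0.22 in the ko clones. The part of this in the 4 values was not tested.

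The genes around the members were examined next. Of 34 tested genes other than members within 100 kb of a member, 0 were called by edgeR and 0 had an unadjusted p under 0.05, with log2 fold changes from -0.92 to 0.29 and a smallest adjusted p of 0.369. Over all tested genes, 14.3% had an unadjusted p under 0.05, and few were called (0.859% higher and 0.417% lower), so that 0 calls among 34 genes is no result about them. The H2 region of chromosome 17 from H2-Ke2 to H2-M2 (chr17:33938909-37483554) held 92 tested genes, 3 of them members, since Tapbp lies just outside it. None was called, 5 (5.43%) had an unadjusted p under 0.05, a smaller share than the 14.3% of all tested genes, and the median log2 fold change was 0.01. These 5 were H2-K1, H2-Q4, H2-Q10, Fkbpl and D17H6S53E, of which the last 3 were taken up after their values were seen.

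**Figure D5:**
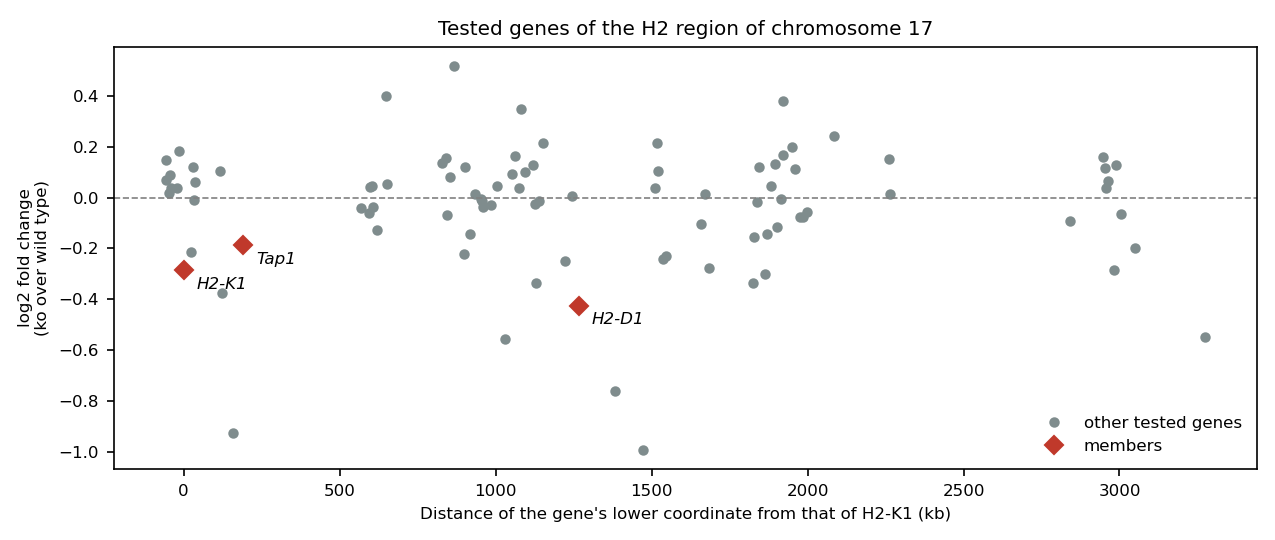
Log2 fold change of Morc3 ko over wild type (y axis) of the 92 tested genes of the H2 region against the distance of their lower coordinate from that of H2-K1 in kb (x axis), with the members as red diamonds. The points scatter on both sides of 0 along the region, with H2-K1 at -0.29, Tap1 at -0.19 and H2-D1 at -0.42.

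Of the marker genes of other cell types, Thy1, a surface protein used here as a fibroblast marker, fell in ko, with a log2 fold change of -0.86 (adjusted p of 0.0064 by edgeR). It was the only call among the 9 fibroblast markers, of which 2 passed the filter, and the summed level of the 9 was 7.68 to 8.41 CPM in ko and 12.4 to 13.7 CPM in wild type. Most of this sum came from Thy1 (4.80 CPM in ko, 8.71 CPM in wild type) and Pdgfrb (2.24 and 3.01 CPM). Of the matrix genes that define fibroblasts, Col1a2, Col3a1, Dcn, Lum and Postn had 0 to 3 counts per library and Col1a1 had 2 to 8. Pdgfra, also below the filter, had 1 to 13 counts per library. 3 of 10 class II presentation genes and 2 of 10 endoderm and trophoblast markers passed the filter, and 0 were called. The part of other cells in the member values was not tested.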

How the data were processed

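RNA-seq libraries of 3 Morc3 ko clones and 3 wild-type ES cell samples were analysed. The authors depleted ribosomal RNA, made strand-specific libraries, sequenced 50-bp paired ends, aligned reads to mm10 with STAR and let STAR count them. The gene annotation they counted on is not given in the sources used here. The deposited files hold raw counts per gene for each library, for both strands together and for each strand. The sense-strand counts were used, without the 4 lines of unassigned reads (36.2% to 37.7% of all reads). Reads that map to several places (16.3% to 17.4%) are not in gene counts.

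Genes were tested with edgeR 4.0.16 (R 4.3.3; quasi-likelihood test, TMM, filterByExpr with minimum count 10 and minimum total 15, prior count 0.125, two-sided), with Benjamini-Hochberg adjustment over all 12222 genes. The threshold of the study, an adjusted p under 0.01, was kept, and DESeq2 1.42.0, which the authors used, was an alternative. CPM were computed with TMM-scaled library sizes, and intervals and floors for count ratios cover counting error only. The test was checked on simulated counts. Positions came from RefSeq (GRCm38), where 22539 of 24054 genes matched by symbol and 1351 by an older symbol; strands and exon lengths came from GENCODE vM21. Promoter windows were aligned with Biopython 1.88.

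The members and gene lists were chosen with earlier results of these data known. Named genes are the members, Morc3, called related genes, the 2 most abundant tested genes of each related role, called genes within 100 kb of a member, and context markers. Other alternatives were limma-voom (limma 3.58.1), the robust fit, RLE, upper-quartile and library-size scaling, no filter, a CPM filter (at least 1 in 3 libraries), counts that ignore strand, a threshold of 0.05 and leaving out each library.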

Additional observations from a re-analysis of the deposited data

Results flagged for a closer look

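Tapbp had 75 opposite-strand counts over the 6 libraries, 8 to 19 per library, against 0 or 1 per library for each of the other members. These were 34 counts in ko and 41 in wild type, and made up 7.08% of the Tapbp counts of both strands. No RefSeq gene span overlaps Tapbp, and the origin of these counts was not tested.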

How the results depend on the processing

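No paired analysis was possible because no replicate number is shared between ko clones and wild-type libraries. Under each of 16 alternatives, 0 members were called higher and 0 lower. The adjusted p ranged from 0.0461 to 0.539 for B2m and from 0.133 to 0.772 for H2-K1. B2m, H2-K1, H2-D1, Erap1 and Tapbp kept the sign of their log2 fold change in all 15 alternatives that gave one. Leaving out 1 library at a time, the members' median log2 fold change ranged from -0.35 (without clone 2) to -0.15, where 9 members passed the filter without clone 2. The log2 fold change of Tap1 ranged from -0.51 to 0.26 and was 0.26 without p42. That of Nlrc5 ranged from -0.12 to 0.52 and was -0.12 without clone 2 and -0.10 without p56. The related genes called higher ranged from 1 to 2, because Lnpep was lost, and those called lower from 0 to 1, because Jak1 was called without p56 (adjusted p of 0.0087). At a threshold of 0.05, 2 related genes were called lower, H2-Q4 and Jak1. With edgeR's robust option, Morc3 had an adjusted p of 0.0184. The cause of these changes was not tested. Tap2, Psmb8 and Psmb9 have no value under the filter used and gave values only where fewer genes were filtered out or a library was left out, with no call. With 6 to 21 counts per library, the 95% interval of the Tap1 fold ran from 0.457 to 1.69.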
